A study of Mus musculus with 9 samples.

Results

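Granzymes are serine proteases that killer T cells and natural killer cells store in secretory granules, and perforin is the protein that lets them enter a target cell. The genes described here are Prf1, which encodes perforin, and the 10 granzyme genes that the array annotation names, Gzma, Gzmb, Gzmc, Gzmd, Gzme, Gzmf, Gzmg, Gzmk, Gzmm and Gzmn. They were chosen by symbol and make up 11 of the 17498 named genes, and 12 of the 36547 probes. Gzme has 2 probes and each of the other 10 genes has 1.

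The RNA came from mouse CD8+ T cells. For 4 days the cultures held 1 of the cytokines IL-2, IL-15 and IL-21, at 10 ng/ml, or none. A second stimulation of 4 h followed, without any cytokine. Each of the 9 two-colour arrays set cytokine-treated cells against untreated cells, with 3 biological replicates per cytokine, so the untreated cells are the other channel of every array. The labels do not name the strain, age or sex of the mice, or the stimulus. All values are read here as log2 ratios, though the sources do not give the log base, and each fold value rests on that reading. They hold no level of expression, so neither the presence of a marker nor the level of 1 gene against another can be read from them.

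The ratios are given as cytokine over untreated, but the direction of replicates 2 and 3 is not settled. The labels put the cytokine RNA in Cy5 on all 9 arrays, while the series text and a deposited dye list put it in Cy3 in replicates 2 and 3. The array correlations were mixed, and the direction was not tested. Over all probes, 15 of the 18 pairs of a replicate 1 array with a replicate 2 or 3 array correlated below 0, from -0.35 to 0.06 and with 3 pairs below -0.3, whereas 14 of the 15 pairs among replicates 2 and 3 correlated above 0 and 1 did not (-0.03). Within a replicate, the difference between IL-21 and IL-2 removes what both arrays share. Over all probes these differences correlated at 0.20 between replicates 1 and 2 and 0.15 between replicates 1 and 3. Between replicates 2 and 3 the value was 0.11. In the same order, the values were 0.12, 0.14 and 0.17 for IL-21 against IL-15, but 0.04, -0.04 and -0.02 for IL-15 against IL-2. Turning the signs of replicates 2 and 3 would reverse every correlation given here between replicate 1 and replicate 2 or 3. The values below take all arrays to run one way, as the labels have it, and statements on all 3 replicates rest on that. Replicate 1, for which all sources place the cytokine RNA in Cy5, keeps its signs in either case. Values with the signs of replicates 2 and 3 turned are given beside the main results, but not beside every value. Changes given without them rest on the direction as well. With the signs turned, limma called no gene of the 17498 in any comparison.

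Granzyme B cuts after aspartate and starts apoptosis through caspases and Bid, whereas granzyme A is a tryptase that acts in other ways. Granzymes are made as inactive precursors, which cathepsin C activates, and are held on the proteoglycan serglycin. Perforin inserts into membranes when calcium is present. IL-2 and IL-15 share receptor chains and signal mainly through STAT5, while IL-21 signals mainly through STAT3, and all are known to act on killer T cells.

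The granzyme genes of the mouse lie in separate places. By the order of protein-coding genes in the RefSeq annotation (GRCm38.p6), Gzma and Gzmk are neighbours on chromosome 13. Gzme, Gzmd, Gzmg, Gzmn, Gzmf, Gzmc and Gzmb follow one another in this order on chromosome 14, next to Ctsg and the mast cell protease genes. Prf1 and Gzmm lie apart from each other on chromosome 10. The 250 bases before the annotated start are printed for the 4 genes whose values stood out, so that the upstream letters of Gzmb can be set beside those of Gzma, Gzmc and Prf1. They are RefSeq sequences in build GRCm38.p6, written 5′ to 3′ on the strand of the gene, with matches to the motifs named after them in capitals. Gzma lies on the minus strand at chr13:113100982-113101231, Gzmb on the minus strand at chr14:56262335-56262584, Gzmc on the minus strand at chr14:56234658-56234907 and Prf1 on the plus strand at chr10:61297586-61297835.
Gzma: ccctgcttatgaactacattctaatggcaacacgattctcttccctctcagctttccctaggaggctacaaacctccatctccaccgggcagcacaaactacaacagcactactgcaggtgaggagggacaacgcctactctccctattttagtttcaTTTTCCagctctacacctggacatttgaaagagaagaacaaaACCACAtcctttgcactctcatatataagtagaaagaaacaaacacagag
Gzmb: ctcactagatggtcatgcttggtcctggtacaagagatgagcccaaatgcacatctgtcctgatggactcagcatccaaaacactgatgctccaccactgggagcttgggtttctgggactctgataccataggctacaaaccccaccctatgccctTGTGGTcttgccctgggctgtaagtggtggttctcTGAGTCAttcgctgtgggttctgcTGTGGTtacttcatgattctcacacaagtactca
Gzmc: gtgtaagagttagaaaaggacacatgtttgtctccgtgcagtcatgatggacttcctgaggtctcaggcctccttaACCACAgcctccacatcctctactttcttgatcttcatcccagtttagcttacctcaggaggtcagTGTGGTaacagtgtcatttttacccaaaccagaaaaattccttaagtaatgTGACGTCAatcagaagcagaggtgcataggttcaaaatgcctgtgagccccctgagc
Prf1: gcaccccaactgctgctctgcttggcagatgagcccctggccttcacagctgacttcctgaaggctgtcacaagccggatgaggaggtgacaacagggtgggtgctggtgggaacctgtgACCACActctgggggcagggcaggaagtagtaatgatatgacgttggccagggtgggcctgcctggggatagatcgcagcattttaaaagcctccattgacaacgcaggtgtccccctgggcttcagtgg

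Both strands were searched from 250 bases before to 50 bases after the start, in 1 window for each of the 11 genes and in all 32851 windows of the RefSeq table. The capitals in Gzmb mark the AP-1 motif, spelled TGANTCA, at -58, and the RUNX motif TGTGGT at -93 and -34, counted back from the start to the first base of the match. Gzmb was the 1 gene of the 11 with the AP-1 motif, which 7.81% of all windows hold. The RUNX motif, or ACCACA on the other strand, was found in 9 of the 11 genes and in 16.8% of all windows. In Gzma it stands at -50, with the NFAT motif GGAAAA, read as TTTTCC, at -92. That motif was found in Gzma and Gzmm and in 23.4% of all windows. The CRE motif TGACGTCA stands at -57 in Gzmc and was found in Gzmc, Gzmf and Gzmg and in 1.79% of all windows. The STAT motif TTCNNNGAA was found in Gzmm at -86 and in Gzmb at 38, past the start, and in 8.3% of all windows. No match was found in the 11 windows for the T-box motif AGGTGTGA or the ETS motif ACAGGAAG, which 1.28% and 3.58% of all windows hold. None of these matches in the printed stretches overlap.

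Upstream windows of 5 chromosome 14 genes, Gzmc, Gzmd, Gzme, Gzmf and Gzmg, shared between 73.5% and 93.4% of their aligned positions. These windows therefore do not count as independent in the RUNX and CRE counts above. Those of Gzmd and Gzme shared 93.4%, those of Gzmf and Gzmg 84.6%, and Gzmc shared 82.7% with each of Gzmd and Gzme. The windows of Gzmb and Gzmn shared 43.6% to 49.4% with these 5 and with each other, close to pairs from different chromosomes such as Gzmb and Prf1 at 49.1%. No probe sequences were used here, so a probe of 1 granzyme gene may also bind RNA of a related gene.

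Gzma had a ratio above 0 on all 9 arrays. With IL-2 its log2 ratio was 2.79 in replicate 1, 1.16 in replicate 2 and 3.62 in replicate 3. With IL-15 it was 2.45, 0.63 and 1.71 in the same order. With IL-21 it was 2.59, 1.70 and 3.10. Replicate 2 was the lowest for every cytokine, and the 3 cytokines overlapped. The mean was 2.52 ± 1.25 with IL-2, 1.59 ± 0.92 with IL-15 and 2.47 ± 0.71 with IL-21 (SD, n = 3 arrays each), or 5.75, 3.02 and 5.52 fold. With IL-21 this was the third highest change of all 17498 genes, against rank 15 with IL-2 and rank 44 with IL-15. Over all genes the test (limma, Benjamini-Hochberg) gave adjusted p 0.0609 for IL-2, 0.363 for IL-15 and 0.295 for IL-21, none past 0.05. With the replicate block, which takes out what arrays of a replicate share, the values were 0.00886, 0.0478 and 0.0359. With replicate as a random effect, which estimates the correlation within a replicate, IL-2 passed (adjusted p = 0.0344) and IL-15 and IL-21 did not (adjusted p 0.285 and 0.194). With the signs of replicates 2 and 3 turned the changes were -0.67, 0.04 and -0.74 (adjusted p 0.87, 0.998 and 0.873). In tests against untreated cells, of this gene and the others, the block also removes from the error whatever the 3 arrays of a replicate have in common. Such blocked p-values leave out that spread between replicates. As the arrays measured RNA in bulk, more cells with the RNA and more RNA per cell cannot be told apart, here and for the other genes.

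Gzmc encodes a granzyme of activated mouse killer cells. Its log2 ratios were 1.46, 0.75 and 2.14 with IL-2 in replicates 1, 2 and 3. They were 2.13, 0.19 and 0.76 with IL-15 and 1.34, 1.78 and 2.08 with IL-21. All 9 were above 0 and the groups overlapped. The means were 1.45 ± 0.70, 1.03 ± 1.00 and 1.73 ± 0.37 (SD, n = 3), and with IL-21 the gene ranked 16 from the top. It did not pass for any cytokine (limma adjusted p 0.15, 0.491 and 0.33, or 0.0899, 0.22 and 0.15 with the replicate block). Turning the signs gave -0.48, 0.39 and -0.84. Over the 9 arrays Gzmc and Gzma correlated at Pearson's r 0.84 and Spearman's rho 0.77 (r 0.97 with the signs turned), a description only, since arrays of a replicate share whatever that replicate has in common.

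Gzmb was high with IL-2 and IL-15 but not with IL-21. With IL-2 the log2 ratio was 1.69, 3.32 and 1.91 in replicates 1, 2 and 3. With IL-15 it was 2.24, 2.66 and 0.80. With IL-21 it was -0.85, 0.67 and -0.56. All 6 IL-2 and IL-15 arrays lay above all 3 IL-21 arrays, while IL-2 and IL-15 overlapped. Means were 2.31 ± 0.88 for IL-2, 1.90 ± 0.97 for IL-15 and -0.25 ± 0.81 for IL-21 (SD, n = 3). The first of these are 4.95 fold and the next 3.74 fold, with ranks 28 and 25 from the top, while with IL-21 the gene ranked 14948. Against untreated cells limma gave adjusted p 0.0597 for IL-2, 0.19 for IL-15 and 0.947 for IL-21, and 0.0115, 0.0301 and 0.652 with the replicate block. With replicate as a random effect IL-2 passed (adjusted p 0.0402) and IL-15 did not (0.142). Turning the signs gave changes of -1.18, -0.41 and -0.32 (adjusted p 0.676, 0.985 and 0.926). The 95% interval of the IL-21 value ran from -1.24 to 0.74, so a moderate change in either direction is not excluded by it.

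**Figure D1:**
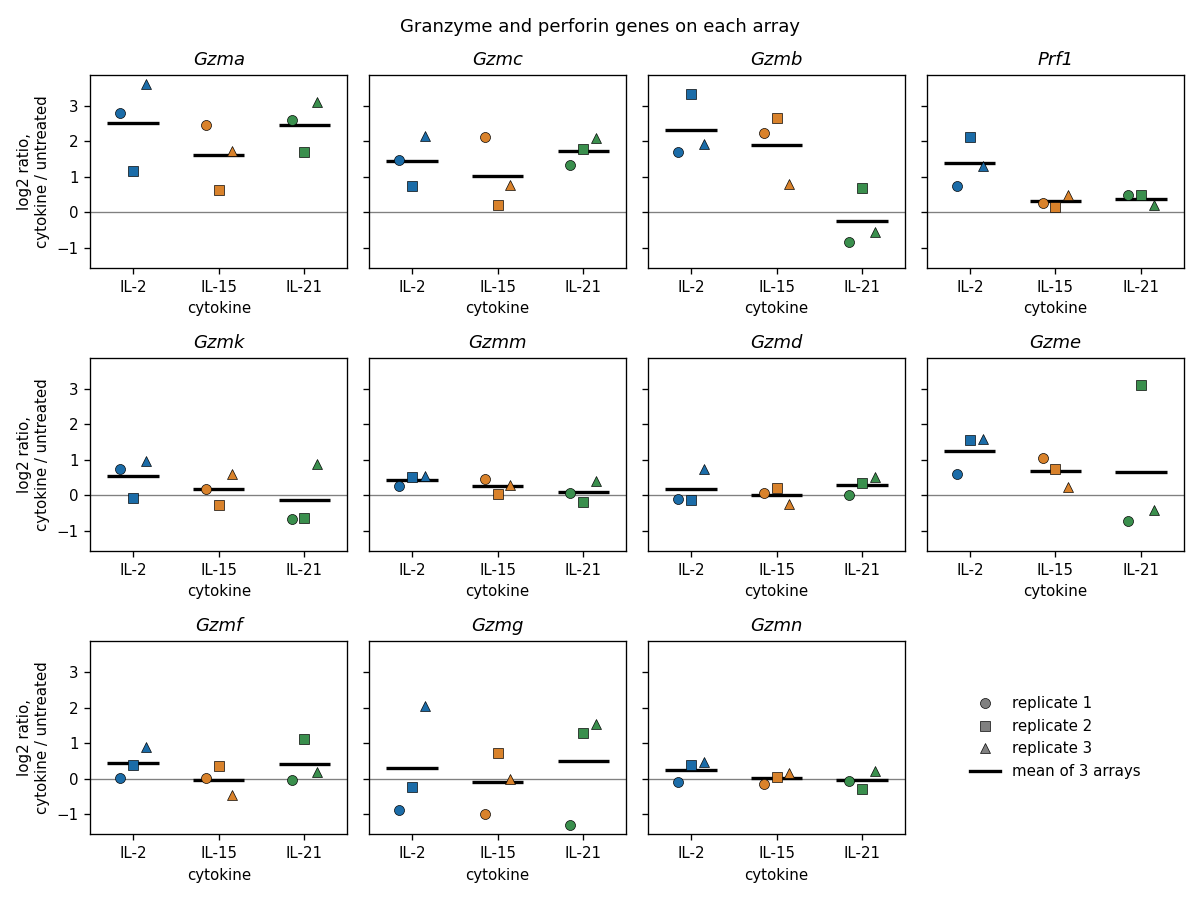
Log2 ratio of cytokine-treated over untreated cells (vertical axis) for each of the 11 genes on each of the 9 arrays, by cytokine (horizontal axis), with a symbol for each replicate and a line at the mean of 3 arrays; Gzme is the mean of its 2 probes. Gzma and Gzmc are above 0 on all 9 arrays, and Gzmb is between 0.80 and 3.32 with IL-2 or IL-15 and between -0.85 and 0.67 with IL-21.

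Prf1 was the gene of the 11 that passed the test. Its log2 ratio with IL-2 was 0.73, 2.12 and 1.30 in replicates 1, 2 and 3. With IL-15 it was 0.27, 0.16 and 0.49, and with IL-21 it was 0.47, 0.49 and 0.19. All 9 values were above 0, and the 3 IL-2 arrays lay above the other 6. The gene rose with IL-2 by 1.38 ± 0.22 (SE), or 2.61 fold, with adjusted p 0.0359 in limma and 0.0331 with the replicate block. The call was lost with replicate as a random effect (adjusted p 0.0621), with quantile normalization (0.0991), with single probes (0.055) and with the signs turned, where the change was -0.89 (0.504). The changes of 0.31 ± 0.22 with IL-15 and 0.38 ± 0.22 with IL-21 (SE) did not pass (adjusted p 0.901 and 0.844). Leaving out any array other than IL-2 replicate 1 ended it, with adjusted p from 0.0512 without IL-15 replicate 1 to 0.213 without IL-2 replicate 3, the array with the widest spread. Without IL-2 replicate 2 the change was 1.02 (adjusted p 0.113).

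Among all genes, 0.8% passed for IL-2, and Prf1 was the 1 gene of the 11 that did. At an unadjusted p under 0.05, Prf1, Gzma, Gzmb, Gzmc and Gzmm were higher with IL-2, 5 of 11 against 6.77% of all genes, and none was lower (2.05%). For IL-15 none of the 11 passed in limma (0.126% of all genes), and Gzma, Gzmb and Gzmc were higher at an unadjusted p under 0.05 (5.1% of all genes). For IL-21 none of the 11 passed, as none of all genes did (0%), and Gzma and Gzmc were higher at an unadjusted p under 0.05 (2.62% of all genes). The count of genes with all 3 arrays above 0 was 7 of 11 with IL-2 (15.3% of all genes), 6 with IL-15 (15.1%) and 4 with IL-21 (11.5%). On all 9 arrays Gzma, Gzmc and Prf1 were above 0, against 1.5% of all genes. The median change of the 11 genes was 0.55 with IL-2, 0.26 with IL-15 and 0.38 with IL-21, and that of all genes was 0.05, 0.00 and 0.00. These counts were different when the signs were turned. None of the 11 passed for any cytokine, as none of all genes did. None was higher at an unadjusted p under 0.05, near the shares of all genes (3.31% for IL-2, 1.47% for IL-15 and 2.26% for IL-21). Gzmg and Gzmn were lower with IL-2 (7.52% of all genes) and Gzmg with IL-21 (7.5%). None had all 3 arrays of a cytokine above 0, against 12.1%, 11.2% and 13.9% of all genes. The medians of the 11 genes were -0.48, 0.02 and -0.32, beside -0.07, -0.02 and -0.04 for all genes.

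**Figure D2:**
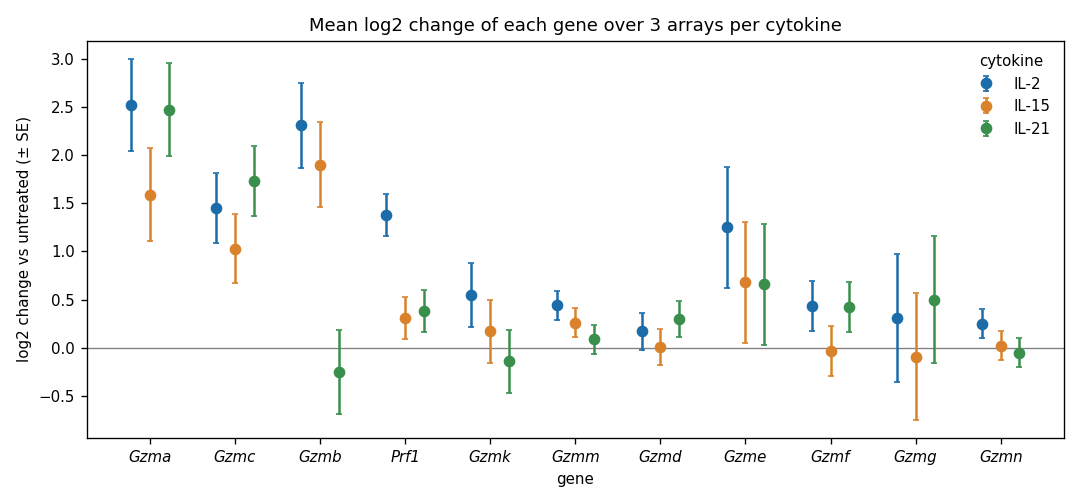
Mean log2 change against untreated cells (vertical axis) of the 11 genes (horizontal axis) for each cytokine, over 3 arrays; bars are limma's standard errors. Gzma stands at 2.52, 1.59 and 2.47 with IL-2, IL-15 and IL-21, Gzmb at 2.31, 1.90 and -0.25, and Prf1 at 1.38, 0.31 and 0.38.

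Apart from Gzme, whose 2 probes are given below, the remaining granzyme genes had mean changes between -0.14 and 0.55 against untreated cells. Gzmm, whose product cuts after methionine or leucine, had 0.27, 0.52 and 0.55 with IL-2, 0.46, 0.03 and 0.29 with IL-15 and 0.06, -0.19 and 0.40 with IL-21. Its change with IL-2 was 0.44 ± 0.15 (SE; limma adjusted p 0.341). Gzmk encodes a tryptase like granzyme A and lies beside Gzma, yet it had 0.75, -0.07 and 0.98 with IL-2, 0.17, -0.27 and 0.61 with IL-15 and -0.67, -0.63 and 0.89 with IL-21. Both signs occurred within each cytokine.

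Of the chromosome 14 genes, Gzmd lay between -0.25 and 0.73 and Gzmn between -0.30 and 0.46 over the 9 arrays. Gzmf lay between -0.46 and 1.12, with the highest value in IL-21 replicate 2. Gzmg followed the replicate number: it was -0.88, -0.99 and -1.32 in replicate 1 with IL-2, IL-15 and IL-21, -0.23, 0.73 and 1.28 in replicate 2, and 2.03, -0.02 and 1.54 in replicate 3. Replicate 1 was the lowest for each cytokine, and it is also the replicate whose dye orientation differs in the series text, so dye and replicate cannot be told apart there. None of these 4 genes passed for any cytokine, with changes between -0.09 and 0.50.

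The 2 probes of Gzme, here called A and B, disagreed. Probe B had 1.54, 3.03 and 1.68 with IL-2, 2.35, 2.09 and 0.06 with IL-15 and -0.61, -0.29 and -0.71 with IL-21. It was thus above 0 on all IL-2 and IL-15 arrays and below 0 on all IL-21 arrays. Over the 9 arrays it correlated with the Gzmb probe at Pearson's r 0.96 and Spearman's rho 0.97, and with the other Gzme probe at -0.28 and 0. Probe A had -0.36, 0.10 and 1.50 with IL-2, -0.25, -0.64 and 0.44 with IL-15 and -0.82, 6.52 and -0.14 with IL-21. The value of 6.52 in IL-21 replicate 2 stands alone, and it sets the mean of the gene on that array. The gene mean of 3.12 there is made of 6.52 and -0.29, so mean changes of Gzme are not read further. Whether probe B binds RNA of Gzmb was not tested.

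**Figure D3:**
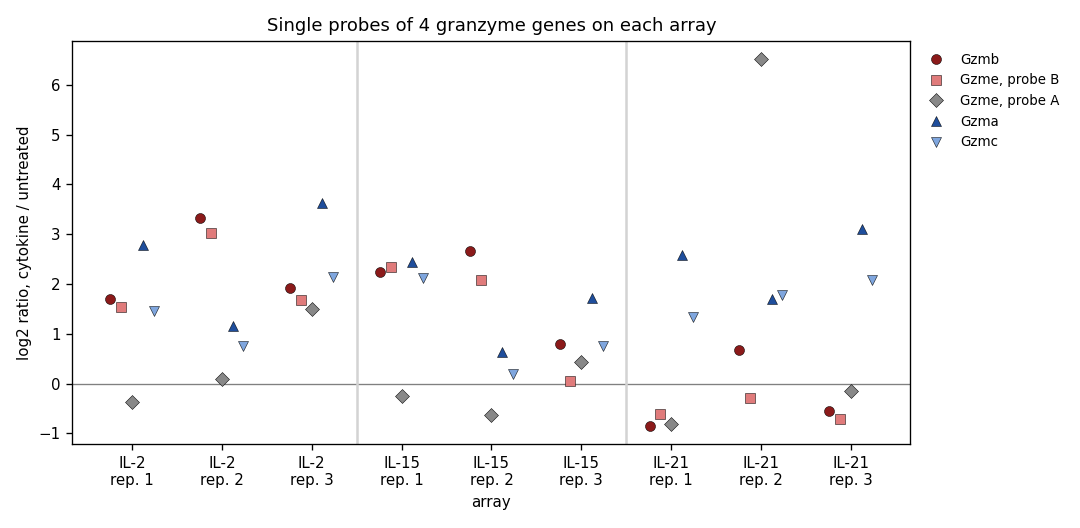
Log2 ratio (vertical axis) of the probes of Gzmb, Gzma and Gzmc and of both Gzme probes on each of the 9 arrays (horizontal axis). Gzmb and Gzme probe B lie together with IL-2 and IL-15 and are at 0.67 or less with IL-21, where Gzma stays at 1.70 or more, and Gzme probe A reaches 6.52 on 1 array.

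The cytokines were then compared with each other, which asks whether IL-21 leaves a different set of killing genes than IL-2 or IL-15. Gzmb was lower with IL-21 than with IL-2 by nearly the same amount in each replicate, with differences of -2.54, -2.65 and -2.48. The mean difference was -2.55 (95% interval -3.95 to -1.16), which is 5.87 fold, and it ranked 28 from the bottom of all genes. In limma without the block the adjusted p was 0.261, and with the replicate block it was 0.0404. With replicate as a random effect it was 0.0251. With the signs of replicates 2 and 3 turned the mean difference was 0.86 (adjusted p 1), since replicate 1 then stands against the other two. Between IL-21 and IL-15 the differences were -3.09, -1.99 and -1.37, with a mean of -2.15 ± 0.62 (SE; limma adjusted p 0.477, or 0.0808 with the replicate block). It was 0.09 (adjusted p 1) when the signs were turned.

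Gzma differed little between IL-21 and IL-2, with -0.19, 0.54 and -0.52 in replicates 1, 2 and 3. The mean was -0.06, but its 95% interval from -1.60 to 1.48 is wide. Prf1 was lower with IL-21 than with IL-2 in each replicate, with differences of -0.27, -1.62 and -1.11 (95% interval of the mean -1.72 to -0.28; limma adjusted p 0.51, or 0.252 with the replicate block). It was also lower with IL-15 than with IL-2 in each replicate, at -1.08 ± 0.32 (SE; adjusted p 1, or 0.898 with the replicate block). Between IL-21 and IL-15 Prf1 differed by 0.08 (95% interval -0.64 to 0.80). With the signs turned the Prf1 differences were 0.82 for IL-21 and 0.77 for IL-15 against IL-2 (adjusted p 1 for both).

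None of the 11 genes passed without the block in any of these 3 comparisons, in which limma called 0.08% of all genes for IL-21 against IL-2, 0% for IL-15 against IL-2 and 0.0171% for IL-21 against IL-15. At an unadjusted p under 0.05, Gzmb and Prf1 were lower with IL-21 than with IL-2 (4.46% of all genes), Prf1 was lower with IL-15 than with IL-2 (0.943%) and Gzmb was lower with IL-21 than with IL-15 (3.61%). The arrays of IL-21 lay below those of IL-2 with no overlap for the same 2 genes, Gzmb and Prf1, against 6.53% of all genes. For IL-15 below IL-2 this held for Prf1 alone (2.87% of all genes), and for IL-21 below IL-15 for Gzmb alone (6.24%). With the signs turned, Gzmb and Prf1 overlapped in all 3 comparisons. Gzmg was then the 1 gene of the 11 without overlap, with IL-21 below IL-15 (3.89% of all genes). None of the 11 genes then passed at an unadjusted p under 0.05. By comparison and direction, 0.326% to 1.15% of all genes did. Comparisons against untreated cells may share the untreated RNA of a replicate, which the labels do not settle.

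**Figure D4:**
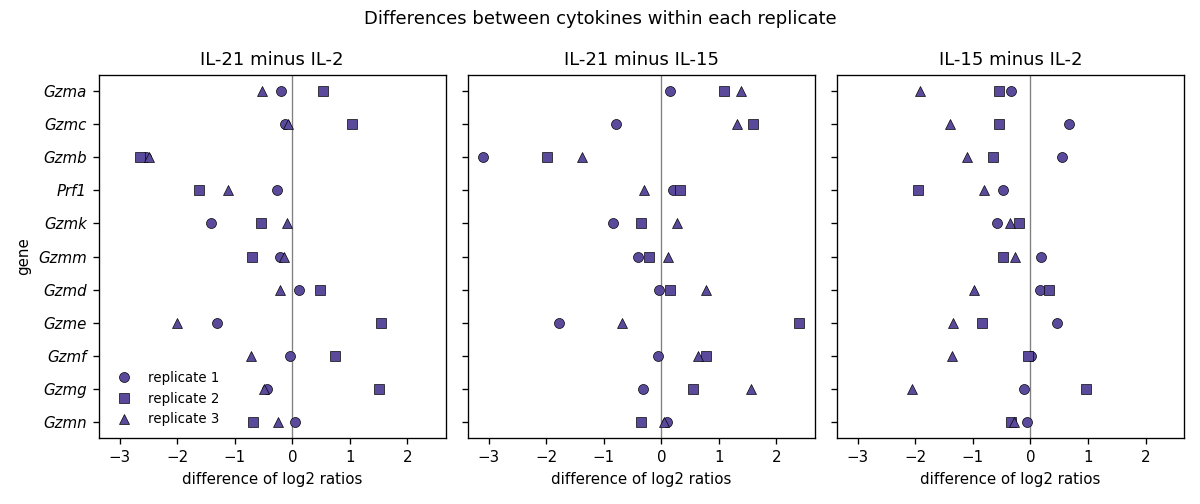
Difference of log2 ratios between 2 cytokines within each replicate (horizontal axis) for the 11 genes (vertical axis), with a symbol for each replicate. For Gzmb the IL-21 minus IL-2 differences lie between -2.65 and -2.48, while for Gzma they lie between -0.52 and 0.54.

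The difference between Gzmb and Gzma was looked at after the values were seen, so it is given with no test. The Gzmb ratio minus the Gzma ratio was -1.10, 2.15 and -1.71 with IL-2 in replicates 1, 2 and 3. It was -0.20, 2.04 and -0.90 with IL-15 and -3.44, -1.03 and -3.66 with IL-21. In each replicate the IL-21 array had the lowest value, below the mean of the other two arrays by -2.79, -3.13 and -2.36. Replicates 2 and 3 would, with turned signs, go the other way.

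The genes whose ratios ran most like those of 3 of these genes over the 9 arrays were listed by Pearson's r. For Gzmb they were Pgk1, which encodes a glycolytic kinase, at 0.98, Lancl2 and Tmsb15l at 0.96, and Cenpm and Unc119 at 0.93. Pgk1 had 1.10, 2.07 and 1.52 with IL-2, 1.26, 1.42 and 0.47 with IL-15 and -0.73, -0.02 and -0.62 with IL-21. It thus split IL-21 from the other cytokines on every array as Gzmb did. For Gzma the genes were Olfr847, Lactbl1, Tank and Fam89a at 0.95 and Gstcd at 0.94. For Prf1 they were Pdia4 at 0.95, Agap3 at 0.94 and Sumf1, Ech1 and Tekt4 at 0.93. Sumf1 had 6.12 and Tekt4 8.05 in IL-2 replicate 2, beside at most 1.49 and 2.64 on the other arrays. The correlations of Sumf1 and Tekt4 thus rest largely on that array. Pdia4, which encodes a protein disulfide isomerase of the endoplasmic reticulum, had 0.18, 1.88 and 1.06 with IL-2 and between -0.05 and 0.49 on the other 6 arrays. With the signs turned the correlations were 0.91 to 0.98 for the 5 genes named for Gzmb and 0.84 to 0.97 for those of Prf1, but -0.03 to 0.86 for those of Gzma.

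Of 23 measured genes that pack, move and release cytotoxic granules, none passed for any cytokine, where 0.8%, 0.126% and 0% of all genes did, a share near that of all genes. They had medians of 0.11 (IL-2), 0.08 (IL-15) and 0.11 (IL-21) beside 0.05, 0.00 and 0.00 for all genes, and a range of -0.60 to 0.71 for IL-2. Rab27a, which docks granules at the membrane, had 0.65 ± 0.14 with IL-2 (SE; limma adjusted p 0.0983). Vamp7, a membrane fusion protein gene, had 0.71 ± 0.16 (SE; adjusted p 0.114). With the signs turned Rab27a had -0.21 and Vamp7 -0.45 with IL-2. Ctsw, which encodes a cathepsin of killer cells, had -0.51 with IL-2 and 0.38 with IL-21, a difference of 0.88 ± 0.22 (SE; adjusted p 0.28). Rab11a, of recycling endosomes, had -0.27 with IL-21 and 0.35 with IL-15. Of 7 measured genes of granzyme maturation and of serpins that inhibit granzymes, none passed, with medians of 0.30, 0.30 and 0.03. Serpinb6b had 0.47 with IL-2 and -0.28 with IL-21, and Serpinb6a had 0.30 and -0.24. Serpinb1a had 0.34, 0.64 and 0.35 with IL-2, IL-15 and IL-21, and Ctsh, a cathepsin gene, had -0.61, -0.48 and -0.19.

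The next list held the 6 ligands and cytokines by which killer cells act besides granules. Among them the lymphotoxin gene Lta rose with IL-2 by 0.74 ± 0.13 (SE; limma adjusted p 0.0449). The other 5 missed the threshold, and 0.8% of all genes passed for IL-2. Lta was lower with IL-21 than with IL-2, at -1.82 (adjusted p 0.0201), and than with IL-15, at -1.73 (adjusted p 0.0399). It was the 1 gene of these lists with such calls, beside 0.08% and 0.0171% of all genes called in these comparisons. Its values in these 3 comparisons with the signs turned were -0.20, 0.44 and 0.39, and none passed. Fasl, the gene of the death ligand FasL, had -0.46 with IL-2, 0.05 with IL-15 and -1.48 ± 0.34 with IL-21 (SE; adjusted p 0.412). Turning the signs gave 1.17 for Fasl with IL-21. Tnf had 0.92 ± 0.14 with IL-15 (SE; adjusted p 0.0689) and Tnfsf10, the gene of TRAIL, had 0.95 ± 0.21 (SE; adjusted p 0.166).

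A further list held 17 measured genes of transcription regulators linked to granzyme or perforin expression. Of these, Id2 and Batf rose with IL-2, by 1.14 ± 0.18 (SE; limma adjusted p 0.0293) and 1.39 ± 0.24 (SE; adjusted p 0.0437). The other 15 missed the threshold, and 0.8% of all genes passed for IL-2. With IL-21 none passed, as none of all genes did (0%), but Id2 had 1.11 and Batf 1.27. The repressor gene Bach2 had -1.32 ± 0.35 with IL-2 (SE; adjusted p 0.185), and Klf2, a quiescence factor gene, had -0.79 with IL-15 and 0.62 with IL-21. Of 10 measured genes of granzyme substrates, the lamin gene Lmna rose with IL-2 by 1.14 ± 0.19 (SE; limma adjusted p 0.038). The other 9 missed the threshold, beside the 0.8% of all genes that passed for IL-2. Hmgb2, a chromatin protein gene, had 2.03 with IL-2, 1.73 with IL-15 and -0.88 with IL-21. With the signs turned Id2, Batf and Lmna had -0.47, -0.68 and -0.50 with IL-2, and none passed. Bach2 then had 1.08 and Hmgb2 -0.39 with IL-2, and Hmgb2 had 0.66 with IL-21. Casp8 had 0.56 with IL-15 and Parp1 0.13. The other serine protease genes encoded beside granzymes, among them Cma1, Mcpt4, Mcpt8 and Elane, had medians of 0.06, -0.01 and 0.09, and none of 10 passed.

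Markers of CD8 T cells and of other cells that make granzymes were set beside these results. The 5 measured CD8 T cell markers had medians of -0.10, 0.05 and 0.08 with IL-2, IL-15 and IL-21, and Cd8a had -0.20, 0.22 and 0.08. The 8 NK cell markers had medians of 0.03, -0.18 and 0.07 and lay between -0.47 and 0.57 over the 3 cytokines, with Klre1 at 0.57 with IL-21. The 6 mast cell and basophil markers had medians of -0.19, -0.17 and -0.05 and the 8 myeloid and neutrophil markers 0.07, 0.01 and 0.00. CD4 T cell markers (4 measured), B cell markers (3 measured) and the gamma delta T cell marker Sox13 lay between -0.32 and 0.35. None of these markers passed in any of the 6 comparisons, where 0% to 0.8% of all genes did. Their part in the granzyme ratios was not tested. Array medians lay between -0.05 and 0.13. The highest was that of IL-2 replicate 3, where 13.6% of probes lay beyond a log2 ratio of 1, against 4.1% to 6.5% on the other arrays.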

How the data were processed

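Per the labels' protocols, total RNA was amplified and dye-coupled through amino allyl groups, and 2 RNA samples were set against each other on each array. The deposited table holds log2 ratios, 1 per probe and array, as made by the authors; how they were scanned, corrected and normalized, and the log base, is not given in the sources used here. They were read as log2 from their signs and their range, -8.01 to 8.78, but a natural log is not excluded. Without intensities no filter on dim probes was possible, and precision is limited by the number of arrays.

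Probes were named by the platform annotation (26926 with 1 symbol, 203 with several, 9418 unnamed; 41 viral probes left out) and averaged per gene and array. The test was limma 3.58.1 (R 4.3.3), with 1 coefficient per cytokine over all 9 arrays, two-sided, with Benjamini-Hochberg adjustment over 17498 genes at 0.05. The fit was also run on simulated data with independent noise on each array. That run cannot show how the fit behaves when arrays of a replicate are correlated. Same-numbered arrays deviated together from their group means (r from 0.15 to 0.65, 9 pairs). Replicate 1 may also differ from the others in direction or dye, so these correlations cannot show that the numbers pair the samples. The block takes the numbers as pairs, and blocked values are given where they change a call. The genes, lists and motifs were chosen with earlier results of these data known; all 11 family genes are named, and of each list the 4 genes with the smallest p in any comparison, where the text needs them. Promoter identity is from global alignment of 300-base windows. Alternatives were quantile normalization, the replicate number as fixed or random block, a dye term, turned signs, the median over probes, single probes, and leaving out replicates or single arrays.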

Additional observations from a re-analysis of the deposited data

Results flagged for a closer look

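Gzmb differed between IL-21 and IL-2 by -2.55 on the log2 scale, and this difference passed in limma with the replicate block (adjusted p 0.0404) but not without it (0.261). It had the same sign in 3 of 3 replicates in the direction the labels give, and was 0.86 with the signs of replicates 2 and 3 turned. In the direction the labels give, Gzme probe B was above 0 on every IL-2 and IL-15 array and below 0 on every IL-21 array. Its differences were -2.62 for IL-21 against IL-2 and -2.04 for IL-21 against IL-15, with adjusted p over all probes of 0.326 and 0.678 in limma, so neither passed.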

How the results depend on the processing

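For IL-2 against untreated cells, 1 of the 11 genes passed in limma, where 140 of all 17498 genes did. It was 0 with quantile normalization, 0 with single probes, 3 with the replicate block (Gzma, Gzmb and Prf1), 2 with a random replicate effect (Gzma and Gzmb, with Prf1 at adjusted p 0.0621), 2 with a dye term (Gzma and Prf1), and 0 to 1 when a replicate or array was left out. For IL-15 the count of 0 became 2 with the replicate block (Gzma and Gzmb) and for IL-21 it became 1 (Gzma). For IL-21 against IL-2 it became 1 with the replicate block and 1 with the random effect, in both cases Gzmb. The other counts of the 11 genes stayed at 0 in each of the settings run. With the signs of replicates 2 and 3 turned, the IL-2 count was 0, Prf1 with IL-2 reversed from 1.38 to -0.89, and 49 of 66 changes of the 11 genes over 6 comparisons changed sign, against 0 to 14 under the other settings. Quantile normalization gave 1.18 for Prf1 with IL-2 (adjusted p 0.0991), 3.82 for Gzma with IL-21 in place of 2.47, and -2.11 for Gzmb in IL-21 against IL-2. For that Gzmb difference, leaving out replicates or arrays gave -3.01 to -2.05, with adjusted p from 0.2 to 0.946. The cause of these shifts was not tested. With 3 arrays per cytokine and no intensities, changes of the genes near 0 cannot be told from background.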
